A study of Mus musculus with 24 samples.

Results

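The genes described here are 42 macrophage and myeloid genes, followed in cultured cells of the mouse embryo's AGM (aorta, gonad and mesonephros), the region in which blood stem cells first arise. They were divided by textbook role into 33 identity genes, which mark the lineage or its phagocytic machinery, and 9 activation genes, which macrophages and other cells induce on stimulation. A gene entered the tests if some group had it detected (detection p under 0.05) on each of its 3 arrays, and the brightest such probe stood for it. This held for 29 of the 42 genes, 23 of identity and 6 of activation, among 12225 genes tested in all. A further 12 had a probe that failed this rule in every group, and Spp1 had no listed probe.

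AGM cells of C57BL/6J embryos at E10.5 were dissociated, left to attach in channel slides, washed free of non-adherent cells and cultured in hydrocortisone-free Myelocult medium. Static culture exposed them to 0.0001 dyne/cm2 and WSS (wall shear stress) culture to 5 dyne/cm2, each with vehicle or with 10 uM indomethacin, for 6 h or 36 h. The 8 groups are therefore static vehicle, WSS vehicle, static indomethacin and WSS indomethacin at each time, with 3 arrays each and 24 arrays in all. No transgene or deletion is named in the labels, all groups share the strain and the medium, and indomethacin, a cyclooxygenase inhibitor, was given to block prostaglandin E2 synthesis. RNA of 6 channels was pooled for each array. Nothing in the labels tells if the triplicates had separate biological sources, so the p-values speak only for the spread among arrays, part or all of which may be technical.

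Macrophages of the embryo at this stage come mainly from yolk sac progenitors and settle in the tissues before definitive blood stem cells are made. They depend on the transcription factor PU.1 (Spi1) and on the receptor for colony stimulating factor 1 (Csf1r), and clear dying cells through scavenger receptors, complement C1q and lysosomal enzymes. Bacterial products and other stimuli sensed by CD14 and Toll-like receptors induce a further set of genes in them within hours, among them Acod1, which makes itaconate, and the C-type lectins Clec4d and Clec4n.

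Values below are log2 signals after background correction and quantile normalization, on a scale where the genes that failed the detection rule read 4.30 to 5.41, Il1b apart. Differences are in log2 units with their standard error, and adjusted p is limma's Benjamini-Hochberg value over all 12225 genes, with calls made under 0.05. Mean array signal before normalization ran from 370 to 610 and 41.3% to 48.9% of probes were detected. At 6 h the vehicle arrays did not overlap in mean signal, with 370 to 455 in static and 543 to 610 in WSS culture. Scaling each array by its median in place of quantile normalization moved the median difference of all genes under WSS from 0.01 to 0.24 (vehicle, 6 h), from 0.04 to 0.32 (indomethacin, 6 h), from 0.03 to 0.24 (vehicle, 36 h) and from 0.02 to 0.12 (indomethacin, 36 h). Among all genes called, the share that was higher under WSS then went from 51.2% to 82.2%, from 53.1% to 88.9%, from 49.7% to 87.1% and from 46.6% to 66.9%, so changes here are relative to the bulk of genes. WSS indomethacin array 2 at 6 h stood apart in red cell genes, whose summed signal was 7710 against 74500 and 82600 on the other arrays of its group. In bulk samples, fewer cells of a type and less RNA per cell cannot be told apart.

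Detection was counted by class, and the 2 classes overlapped. The activation genes Cd14 and Clec4d were detected on 22 and 18 arrays, and Saa3, Marco, Acod1 and Clec4n on 13, 8, 8 and 6. The identity genes Itgb2, Fcgr3, C1qa and Ctss were detected on 8, 12, 12 and 13. The share of all genes detected on every array was not computed. Of the 23 identity genes tested, 11 were detected on all 24 arrays (Csf1r, Adgre1, Fcer1g, Laptm5, Cd52, Coro1a, Lyz2, Cd68, Lgmn, Mpeg1 and Pf4), and of the 6 activation genes none was. The label of the gene set held only in part, since defining macrophage markers were missing. Spi1 was detected on 1 array, with signals of 4.41 to 5.12 and a median of 4.61 over the 24 arrays. Itgam, the CD11b integrin chain, was detected on 0 arrays (4.35 to 4.73), as was Cybb, the oxidase subunit of the phagocyte burst (4.40 to 4.73). Of the 7 scavenger and tissue-resident genes, Mrc1, Cd163, Timd4, Vsig4, Folr2 and Msr1 failed the detection rule, and Pf4, which platelets and megakaryocytes also express, passed it. The activation genes Lcn2 and Il1b failed it too. Il1b, which encodes interleukin-1 beta, was above background on 3 arrays, with a median of 4.62 and its highest signal, 6.55, on WSS vehicle array 1 at 6 h. Low signals bound what these probes can show, and do not show that the transcripts were absent.

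**Figure D1:**
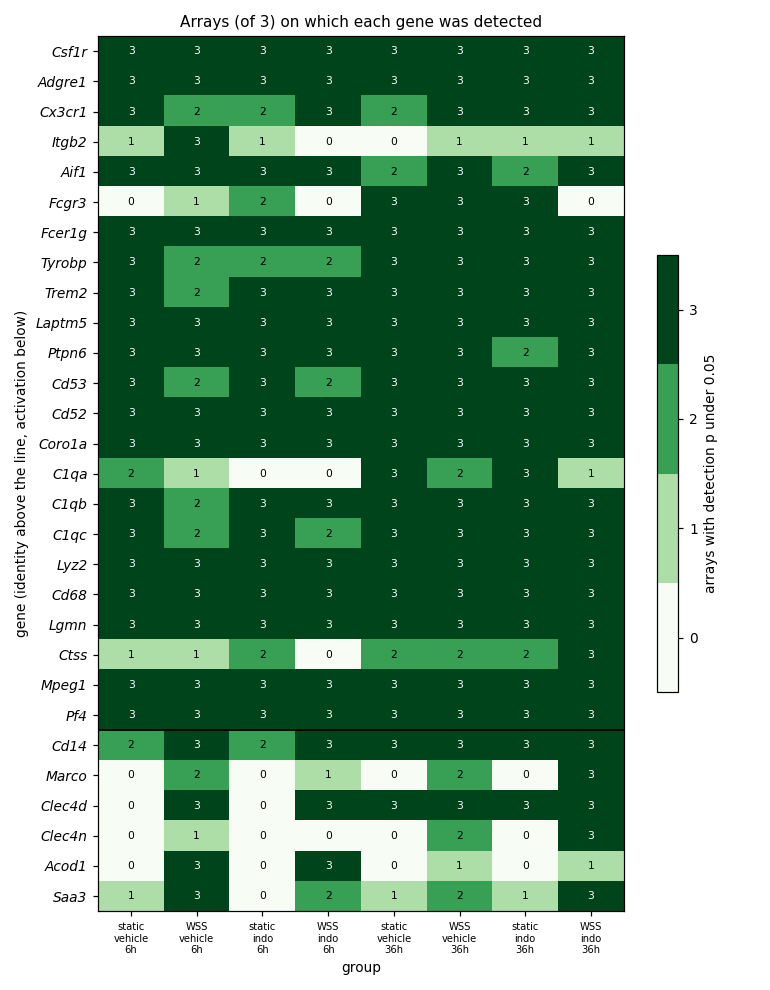
Number of arrays of 3 (colour) on which each of the 29 tested genes was detected at p under 0.05, with genes in rows and the 8 groups in columns. The 11 identity genes detected on all 24 arrays fill their rows, while Acod1, Marco and Clec4n are detected on no array of the static groups.

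Of the tested genes, Itgb2, Ctss, Marco, Clec4n, Acod1 and Saa3 met the detection rule in a WSS group but in no static group. Fcgr3, for one, met it at 36 h only, in 3 groups. Such genes could enter the test only through the groups in which they were high. The counts and medians over tested members below, for flow and for time, are therefore descriptions and support nothing on their own.

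The first question the design asks is what wall shear stress does to the cells within 6 h. In vehicle, 8 of the 29 genes tested were higher under WSS than in static culture and none was lower, where 15.1% of all genes tested were called higher and 14.3% lower (29.4% in either direction). The 8 were 4 of the 6 activation genes (Acod1, Clec4d, Cd14 and Saa3) and 4 of the 23 identity genes (Lyz2, Adgre1, Ptpn6 and Coro1a). The median difference was 1.57 over the activation genes and 0.09 over the identity genes, beside 0.01 over all genes tested.

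Acod1 encodes the mitochondrial enzyme that makes itaconate from the citric acid cycle. At 6 h in vehicle its signals were 4.79, 4.77 and 4.42 in static culture and 8.09, 7.11 and 6.47 under WSS. It was detected on no static array and on every WSS array, and the groups were more than a log2 unit apart. The difference was 2.57 ± 0.40 (SE, n = 3 per group, limma adjusted p = 1e-04), or at least 4.76-fold. Where a gene was undetected on every array of the lower group, such a bound sets the mean of the higher group against, for each array, the larger of the gene's own signal and the dimmest detected signal. It leaves out the standard error and holds for the main processing only, and other settings can give smaller differences. Background correction and offset moved the size of the Acod1 difference between 1.48 and 3.05 over 7 alternatives, and the call stood in all of them. A second, dimmer Acod1 probe, detected on 7 arrays, gave 1.48.

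Clec4d, a C-type lectin receptor for mycobacterial glycolipid that signals through the Fc receptor gamma chain, read 4.59, 4.90 and 4.87 in static and 7.73, 6.21 and 6.01 in WSS culture. It too went from no detected array to 3, and rose by 1.86 ± 0.41 (limma adjusted p = 0.0018), or at least 3.19-fold. Cd14, the co-receptor that hands lipopolysaccharide to Toll-like receptor complexes, read 5.17, 4.66 and 4.97 against 7.21, 6.84 and 5.95. It was detected on 2 static arrays, and its WSS arrays all lay above the static ones. The rise was 1.73 ± 0.31, or 3.33-fold (limma adjusted p = 0.00034). Saa3, an acute-phase apolipoprotein, read 5.14, 4.70 and 4.46 against 7.40, 5.81 and 5.29, a narrow gap between the nearest arrays. It rose by 1.40 ± 0.51 (limma adjusted p = 0.043), but leaving out either of static arrays 2 and 3, or either of WSS arrays 1 and 2, removed the call. Over the 6 omissions the difference ran from 0.79 to 1.84 and adjusted p reached 0.28. Marco and Clec4n, the remaining activation genes, did not pass at 6 h.

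**Figure D2:**
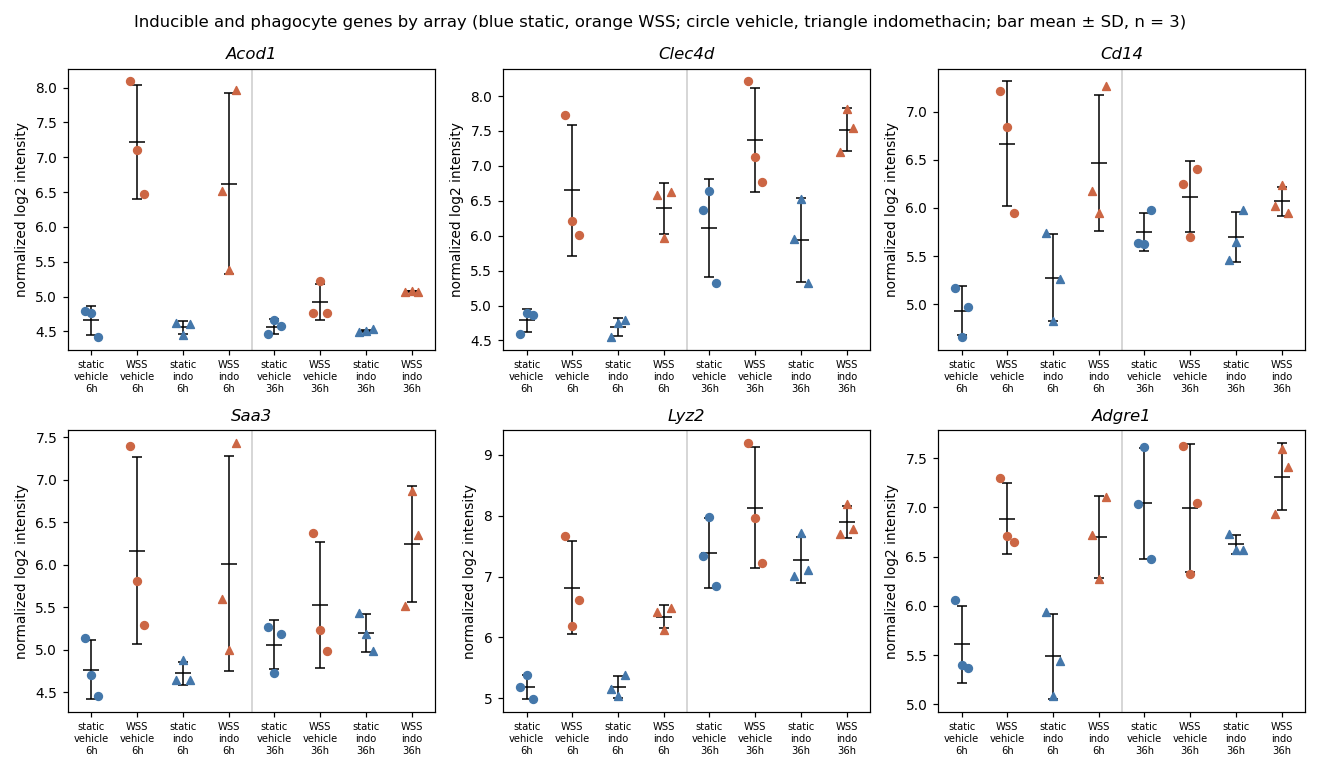
Log2 signal of Acod1, Clec4d, Cd14, Saa3, Lyz2 and Adgre1 on each of the 24 arrays by group, one point per array with the group mean as a line (blue static, orange WSS, circles vehicle, triangles indomethacin). Acod1 is high only in the WSS groups at 6 h, whereas Lyz2 is higher in every group at 36 h than in static culture at 6 h.

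Among the identity genes the largest difference was in Lyz2, the macrophage lysozyme. Its static arrays read 5.19, 5.39 and 4.99 and its WSS arrays 7.67, 6.18 and 6.61, with no overlap. The rise was 1.63 ± 0.38, or 3.1-fold (limma adjusted p = 0.003), and a second Lyz2 probe gave 2.04. Adgre1, the F4/80 surface antigen of mouse macrophages, read 6.06, 5.40 and 5.37 against 7.30, 6.71 and 6.65. Again the groups were apart, by 1.28 ± 0.32 or 2.43-fold (limma adjusted p = 0.0046), and a second, dimmer probe gave 0.60. Coro1a, an actin regulator of leukocytes in general, read 7.92, 7.87 and 7.57 against 8.72, 8.38 and 8.31, a rise of 0.68 ± 0.17 (limma adjusted p = 0.0056) that its other 3 detected probes shared in sign. Ptpn6, the SHP-1 phosphatase of blood cells, passed at 0.70 ± 0.25 (limma adjusted p = 0.039), but its arrays overlapped (5.35, 5.77 and 5.24 against 6.34, 5.69 and 6.45), a second probe gave -0.01, and its adjusted p reached 0.15 on omission of 1 array, with static 1, static 3, WSS 1 and WSS 3 each removing the call.

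Csf1r, Tyrobp and C1qb did not pass at 6 h. Csf1r, the growth factor receptor on which macrophages depend, had means of 5.89 ± 0.41 (SD) in static and 5.70 ± 0.27 in WSS culture, a difference of -0.19 (limma adjusted p = 0.49). Tyrobp, the DAP12 adaptor of activating receptors, read 5.27 ± 0.36 and 5.40 ± 0.99, a difference of 0.13 (limma adjusted p = 0.85). C1qb, the B chain of complement C1q, read 5.75 ± 0.40 and 5.44 ± 0.80, a difference of -0.32 (limma adjusted p = 0.52). None of these 3 differences exceeded the spread between arrays. WSS vehicle array 1 at 6 h held the highest signal of its group for Acod1, Clec4d, Cd14, Saa3, Lyz2, Adgre1, Coro1a and Tyrobp. Without it 6 of the 29 genes were called higher and none lower, and Acod1, Clec4d, Cd14, Lyz2, Adgre1 and Coro1a passed without any single array (largest adjusted p 0.0012, 0.019, 0.004, 0.029, 0.033 and 0.04).

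Promoter sequences of 5 of these genes are printed. Acod1, Clec4d and Lyz2 were called higher under WSS at 6 h, and C1qb and Trem2 were called higher at 36 h than at 6 h. The sets overlap, since Lyz2 was called higher with time in 4 conditions and Clec4d in 3. Each is the 250 bases before the RefSeq gene start on GRCm38.p6, read 5′ to 3′ on the gene's strand. GAGGAA, a sequence found in PU.1 motifs, is in capitals on either strand (TTCCTC on the other). The shorter GGAA that ETS factor motifs share was not marked or counted, and it also occurs in windows without GAGGAA. The windows are chr14:103046762-103047011 (plus strand) for Acod1, chr6:123261857-123262106 (plus) for Clec4d, chr10:117282273-117282522 (minus) for Lyz2, chr4:136886201-136886450 (minus) for C1qb and chr17:48346151-48346400 (plus) for Trem2.
Acod1: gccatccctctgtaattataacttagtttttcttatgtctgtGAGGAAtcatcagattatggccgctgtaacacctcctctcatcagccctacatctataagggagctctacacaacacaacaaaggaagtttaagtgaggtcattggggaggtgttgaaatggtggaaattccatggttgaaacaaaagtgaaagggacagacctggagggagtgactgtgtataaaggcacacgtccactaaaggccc
Clec4d: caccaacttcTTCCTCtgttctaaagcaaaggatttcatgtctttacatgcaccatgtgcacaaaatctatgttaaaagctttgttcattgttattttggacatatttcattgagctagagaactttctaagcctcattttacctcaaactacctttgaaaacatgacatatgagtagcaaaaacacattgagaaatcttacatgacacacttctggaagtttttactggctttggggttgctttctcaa
Lyz2: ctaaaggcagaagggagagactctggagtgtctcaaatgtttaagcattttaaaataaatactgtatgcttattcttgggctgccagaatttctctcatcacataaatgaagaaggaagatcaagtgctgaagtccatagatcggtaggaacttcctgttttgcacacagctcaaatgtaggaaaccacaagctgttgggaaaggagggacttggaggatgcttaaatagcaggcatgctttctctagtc
C1qb: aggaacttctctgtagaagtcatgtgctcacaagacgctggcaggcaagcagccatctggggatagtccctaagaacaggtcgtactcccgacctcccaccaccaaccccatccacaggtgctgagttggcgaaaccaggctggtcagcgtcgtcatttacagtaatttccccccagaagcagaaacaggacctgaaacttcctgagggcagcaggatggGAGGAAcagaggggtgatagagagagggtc
Trem2: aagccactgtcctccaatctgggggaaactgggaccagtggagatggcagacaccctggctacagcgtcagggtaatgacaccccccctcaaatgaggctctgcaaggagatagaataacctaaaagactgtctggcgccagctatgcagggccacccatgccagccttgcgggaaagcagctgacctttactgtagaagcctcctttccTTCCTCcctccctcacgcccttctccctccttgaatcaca

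GAGGAA began 208 bases before the start in Acod1, 240 in Clec4d, 30 in C1qb and 40 in Trem2, and was not in the Lyz2 window. RefSeq windows were given for 32 of the 42 genes, 37 windows in all, and 20 of the 37 held GAGGAA on either strand, beside 23.3% of 32851 promoter windows of the same length. The NF-kappaB motif (GGG, any 2 bases, then TTTCC) was in 3 of the 37 (1.41% of all windows) and the C/EBP motif TTGCNNAA in 7 (9.56% of all windows). Neither was in any of the 5 windows printed, so none of the matches there overlapped. These are matches of letters and not measured binding.

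With indomethacin in the medium, WSS for 6 h gave 5 member genes higher and 1 lower, where 9.45% of all genes were called higher and 8.34% lower (17.8% in either direction). All 5 that rose (Acod1, Clec4d, Cd14, Adgre1 and Lyz2) also rose in vehicle, a pattern that 877 genes, or 7.17% of those tested, showed. Acod1 read 4.62, 4.45 and 4.61 in static indomethacin and 6.51, 5.38 and 7.97 in WSS indomethacin culture. The WSS arrays spanned a wide range above the undetected static ones, and the difference was 2.06 ± 0.40 (limma adjusted p = 0.0015), or at least 3.11-fold. Its second, dimmer probe gave 1.22. Clec4d read 4.55, 4.75 and 4.79 against 6.59, 5.97 and 6.62, at least 2.66-fold (1.70 log2 units, limma adjusted p = 0.0068). Its 3 WSS arrays lay close together, well above background.

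Cd14 rose by 1.19 ± 0.31 (2.28-fold, limma adjusted p = 0.012) and Adgre1 by 1.22 (2.32-fold, limma adjusted p = 0.012). Without static indomethacin array 2 or WSS indomethacin array 3 both calls were lost, with adjusted p up to 0.094 for Cd14 and 0.067 for Adgre1. Lyz2 read 5.15, 5.03 and 5.39 against 6.41, 6.13 and 6.49, which did not overlap, and rose by 1.16 (limma adjusted p = 0.039). That call was lost without any 1 of the 6 arrays (adjusted p up to 0.12). Saa3 reached 7.43 on 1 WSS indomethacin array and did not pass (1.29, limma adjusted p = 0.086).

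The gene that fell was Laptm5, which encodes a lysosomal membrane protein of blood cells. Its signals were 10.39, 9.90 and 10.34 in static and 9.68, 9.11 and 9.56 in WSS indomethacin culture, a drop below every static array. It fell by 0.76 on the log2 scale, or 1.69-fold (limma adjusted p = 0.0078), and by 0.34 with median scaling, where adjusted p was 0.22. Without WSS indomethacin array 2, the array low in red cell genes, adjusted p was 0.061. Without that array 7 member genes were higher and none lower, with Cd52, Marco and Saa3 added and Laptm5 and Lyz2 lost.

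By 36 h fewer member genes differed between WSS and static culture. In vehicle 2 of 29 were higher, Clec4n and Coro1a, and none lower, against a background of 4.66% higher and 4.72% lower (9.38% in either direction). Clec4n, the Dectin-2 receptor for fungal mannans, read 4.61, 4.68 and 4.64 in static and 6.07, 4.92 and 5.49 in WSS culture, and was detected on no static array and on 2 WSS arrays. It rose by 0.85 ± 0.22 (limma adjusted p = 0.02), or at least 1.21-fold, and its adjusted p reached 0.11 when 1 array was omitted, the call being lost for static 1, static 3 and WSS 1. Coro1a read 8.47, 8.70 and 8.33 against 9.14, 9.15 and 8.97, and rose by 0.59 ± 0.17, or 1.5-fold (limma adjusted p = 0.038). Omission of any 1 of the 6 arrays other than static 2 removed that call (adjusted p up to 0.14). Acod1 (0.35, limma adjusted p = 0.64) and Adgre1 (-0.05, or 0.20 with median scaling) did not pass at this time. Clec4d lay higher on every WSS array (8.21, 7.13 and 6.77) than on any static one (6.37, 6.64 and 5.32). Its difference of 1.26 missed the threshold (limma adjusted p = 0.055) and passed with the replicate number as a block (adjusted p = 0.04).

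In indomethacin at 36 h, 3 activation genes were higher under WSS and 2 identity genes lower, where 5.06% of all genes were called higher and 5.78% lower (10.8% in either direction). Marco, a scavenger receptor for bacteria and particles, read 4.59, 4.80 and 4.48 in static and 6.40, 7.08 and 6.89 in WSS culture. No static array was above background and all WSS arrays were, and the difference of 2.17 ± 0.32 (limma adjusted p = 0.00011), or at least 3.16-fold, stood without any single array. In WSS vehicle culture at the same time it read 5.24, 4.69 and 5.39. Clec4d rose from 5.96, 6.53 and 5.33 to 7.20, 7.82 and 7.54, by 1.58 or 2.99-fold (limma adjusted p = 0.016). Clec4n rose from 4.87, 4.56 and 4.86, none of them detected, to 5.37, 5.70 and 5.92, by 0.90 or at least 1.45-fold (limma adjusted p = 0.012). Both sets of WSS arrays lay wholly above the static ones, but the Clec4d call was lost without static indomethacin array 3 or WSS indomethacin array 2 (adjusted p up to 0.075) and that of Clec4n without static indomethacin array 2 or WSS indomethacin array 3 (up to 0.053).

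The 2 that fell there were Fcgr3, the low-affinity IgG receptor of macrophages and natural killer cells, and Cd53, a leukocyte tetraspanin. Fcgr3 read 5.69, 6.03 and 5.50 in static and 4.95, 4.59 and 5.08 in WSS indomethacin culture, where no array detected it. It fell by 0.87 on the log2 scale (SE 0.18, limma adjusted p = 0.0034), a drop of at least 1.59-fold that passed without any single array. Cd53 went from 6.32, 6.54 and 6.44 to 5.66, 5.64 and 5.93, and fell by 0.69 on the log2 scale (SE 0.17, limma adjusted p = 0.014). Its adjusted p reached 0.058, above the threshold, on omission of static indomethacin 2, WSS indomethacin 1 or WSS indomethacin 2.

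**Figure D3:**
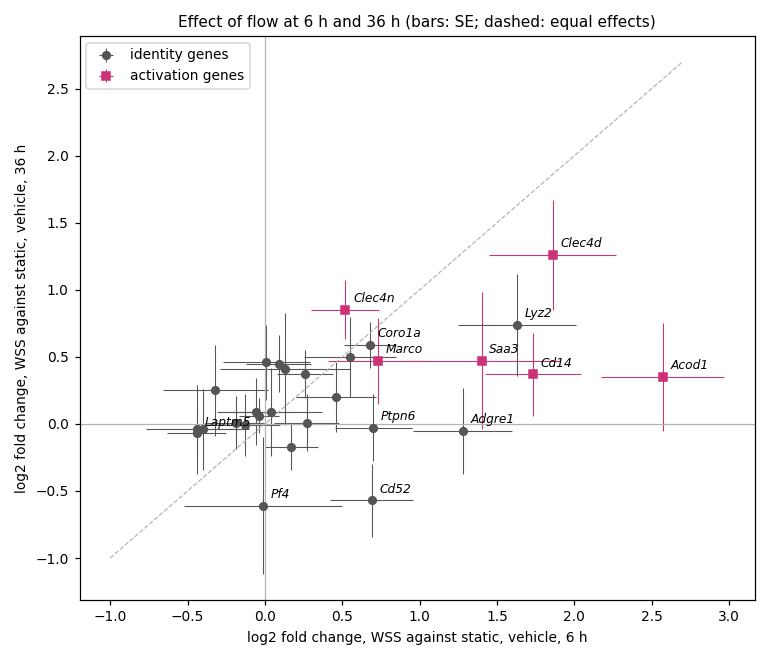
Log2 difference of WSS against static in vehicle for the 29 tested members at 6 h (horizontal) and at 36 h (vertical), with standard errors and a dashed line of equal effects (grey circles identity, pink squares activation). Acod1 lies farthest below the line, at 2.57 and 0.35.

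Whether the flow response differed between the times was tested by the interaction itself. In vehicle 3 member genes passed, all with a lower WSS effect at 36 h than at 6 h, where 11.8% of all genes passed, 6.33% with a higher and 5.42% with a lower effect at 36 h. For Acod1 the effect was 2.22 log2 units smaller at 36 h (interaction -2.22 ± 0.57, limma adjusted p = 0.017). The 6 h and 36 h effects, 2.57 and 0.35, were both positive. Without WSS vehicle array 1 at 6 h the interaction was -1.78 and missed the threshold (adjusted p = 0.052). For Cd14 the interaction was -1.36 ± 0.44 (limma adjusted p = 0.048). This Cd14 call was lost in 5 of 7 alternatives other than leaving out an array, among them median scaling and no background correction. At 36 h its static arrays, 5.64, 5.63 and 5.98, overlapped its WSS arrays, 6.25, 5.70 and 6.40.

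Cd52, a small glycoprotein of leukocytes, gave an interaction of -1.25 ± 0.38 (limma adjusted p = 0.034). Its arrays went from 5.73, 5.86 and 5.92 (static) and 6.94, 6.02 and 6.60 (WSS) at 6 h to 7.31, 7.13 and 6.80 (static) and 7.06, 6.35 and 6.13 (WSS) at 36 h. WSS was thus above static at 6 h and mostly below it at 36 h, with neither difference passing on its own (0.69, limma adjusted p = 0.056, at 6 h). The Cd14 call was lost in 9 of 12 omissions of 1 array, all but static vehicle array 1 at 6 h, WSS vehicle array 3 at 6 h and WSS vehicle array 3 at 36 h (adjusted p up to 0.13). That of Cd52 was lost in 9 of 12 too, all but static vehicle array 3 at 36 h, WSS vehicle array 1 at 36 h and WSS vehicle array 2 at 6 h (adjusted p up to 0.099). Under the 7 other alternatives the Cd52 call was lost in 3. Without WSS vehicle array 1 at 6 h, no member gene passed this interaction. In indomethacin no member passed in limma, although 7 of the 29 were under an unadjusted p of 0.05 and 2.91% of all genes passed. Acod1 (-1.49, limma adjusted p = 0.15) passed there without WSS indomethacin array 2 at 6 h (-2.11, adjusted p = 0.03), and Marco (1.39, limma adjusted p = 0.087) without WSS indomethacin array 3 at 6 h (1.92, adjusted p = 0.011).

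Time in culture moved the identity genes more than flow did in number of calls. From 6 h to 36 h, 12 of the 23 tested identity genes rose in static vehicle, 13 in WSS vehicle, 10 in static indomethacin and 7 in WSS indomethacin, and none fell. Of all genes tested, 26% were called higher and 25% lower in static vehicle (51% in either direction), 18% and 17.7% in WSS vehicle (35.8%), 24.5% and 22.3% in static indomethacin (46.9%), and 14.6% and 16.2% in WSS indomethacin (30.7%). Median differences over the identity genes were 0.72, 0.65, 0.70 and 0.41, beside medians of 0.01, 0.01, 0.03 and -0.01 over all genes. Trem2, Cd53, C1qc, Lyz2 and Lgmn rose in all 4 conditions, as did 8.26% of all genes (1010), while 7 identity genes rose in none, Csf1r, Cx3cr1, Itgb2, Aif1, Ptpn6, C1qa and Pf4.

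Trem2, the lipid-sensing receptor of tissue macrophages that signals through Tyrobp, read 5.56, 4.98 and 5.14 at 6 h and 7.31, 7.14 and 6.42 at 36 h in static vehicle culture. Under WSS in vehicle it read 5.36, 4.88 and 5.28 and then 7.50, 6.74 and 6.90. The times did not overlap in either, and the rises of 1.73 and 1.87 log2 units (limma adjusted p = 9.1e-06 and 1.1e-05) were 3.31-fold and 3.66-fold. In indomethacin it rose by 1.44 in static and by 1.25 in WSS culture (limma adjusted p = 8.9e-05 and 0.00075). No omission of 1 array removed any of its 4 calls, nor any of those of Lgmn, the lysosomal protease legumain, which rose by 0.48 to 0.78.

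Of the C1q chains, which tag dying cells and immune complexes for uptake, C1qb and C1qc rose. C1qb read 6.22, 5.49 and 5.55 and then 7.50, 7.47 and 7.19 in static vehicle, a rise of 1.63 or 3.1-fold (limma adjusted p = 0.00043). In WSS vehicle it read 6.20, 4.61 and 5.50 and then 7.50, 7.48 and 7.91, a rise of 2.19 or 4.57-fold (limma adjusted p = 4.9e-05). All arrays at 36 h were thus brighter than any at 6 h, also in WSS indomethacin (1.25, limma adjusted p = 0.0079), whereas in static indomethacin C1qb missed the threshold (0.79, limma adjusted p = 0.06) despite arrays that did not overlap. C1qc rose by 1.12, 1.53, 0.90 and 1.22 in static vehicle, WSS vehicle, static indomethacin and WSS indomethacin. C1qa passed in none of the 4, with differences of 0.71, 0.77, 0.77 and 0.42, and the chains were not tested against each other. Without WSS indomethacin array 2 at 6 h the WSS indomethacin calls of C1qb and C1qc were lost (adjusted p = 0.061 and 0.059), and the static indomethacin call of C1qc was lost without static indomethacin array 2 at 6 h or any at 36 h (up to 0.14).

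**Figure D4:**
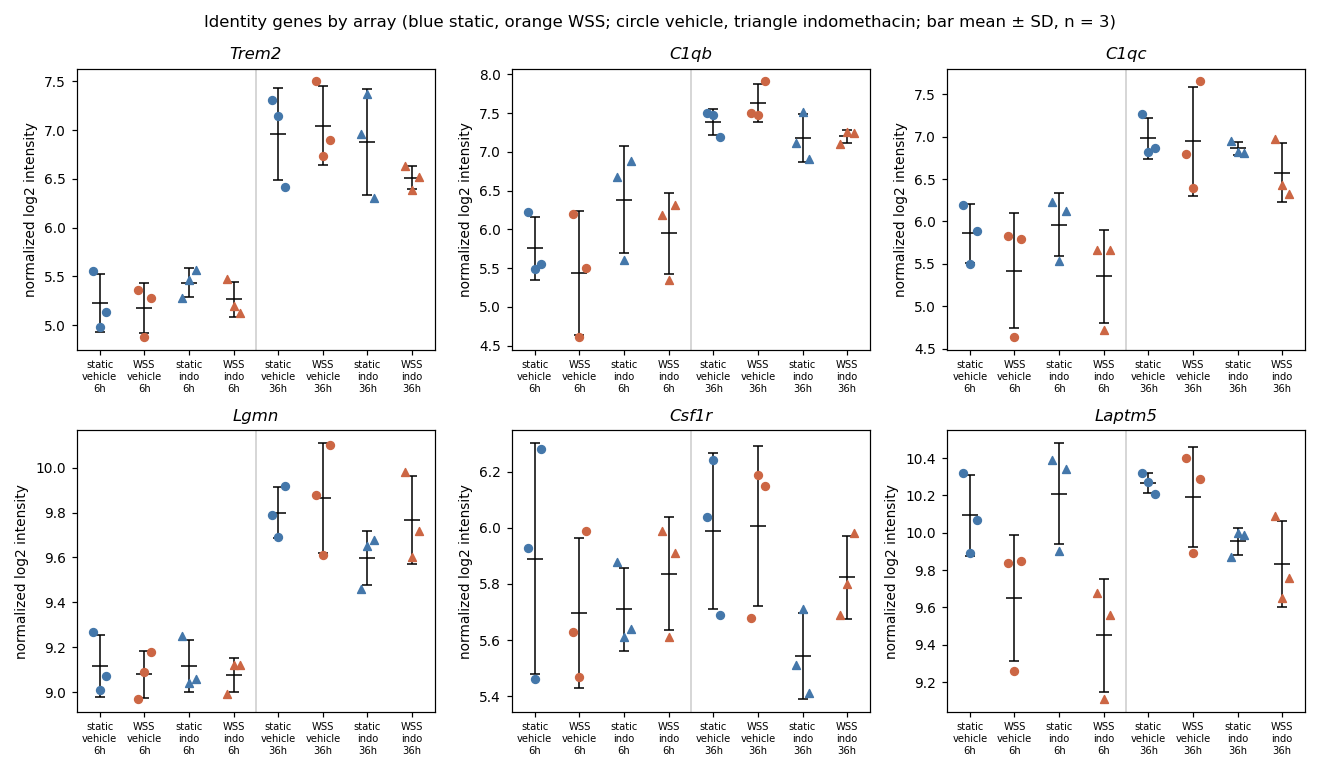
Log2 signal of Trem2, C1qb, C1qc, Lgmn, Csf1r and Laptm5 on each array by group, one point per array with the group mean as a line (blue static, orange WSS, circles vehicle, triangles indomethacin). Trem2 lies between 4.88 and 5.57 on the 12 arrays at 6 h and between 6.30 and 7.50 on the 12 at 36 h, while Csf1r stays between 5.41 and 6.28 throughout.

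Lyz2 rose with time by 2.20 ± 0.38 in static vehicle (4.6-fold, limma adjusted p = 6.5e-05), from 5.19, 5.39 and 4.99 to 7.34, 7.98 and 6.84. In WSS vehicle, where it was already higher at 6 h, it went from 7.67, 6.18 and 6.61 to 9.19, 7.97 and 7.22. Those arrays overlapped, and the rise of 1.31 (limma adjusted p = 0.011) was lost without WSS vehicle array 1 at 36 h or array 2 at 6 h (adjusted p up to 0.098). Adgre1 rose in both static conditions, by 1.43 (limma adjusted p = 0.00076) and 1.14 (limma adjusted p = 0.0057), and had no call under WSS. Cd52 likewise rose by 1.24 and 1.26 in static vehicle and static indomethacin, with no call under WSS. For Adgre1 the flow by time interaction in vehicle missed the threshold (-1.33 ± 0.45, limma adjusted p = 0.057), so that a difference between static and WSS culture in its time course was not shown there.

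Of the Fc receptor genes, Fcgr3 went from 4.59, 4.82 and 4.47, all undetected, to 5.72, 5.92 and 5.39 in static vehicle. It rose by 1.05 or at least 1.63-fold (limma adjusted p = 6e-05), by 1.16 in WSS vehicle and by 0.70 in static indomethacin, with no call in WSS indomethacin. Fcgr3 met the detection rule in no group at 6 h, so it entered these tests only through groups at 36 h. Cd53 rose by 0.99, 0.64, 1.12 and 0.57 in the 4 conditions. The WSS calls of Cd53 were lost without WSS vehicle array 2 at 6 h (adjusted p = 0.06), and without WSS indomethacin array 1 or 2 at 6 h or array 3 at 36 h (up to 0.082).

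Among the activation genes, Acod1 fell with time under WSS, from 8.09, 7.11 and 6.47 to 4.77, 5.22 and 4.77 in vehicle. The difference was -2.31 ± 0.40 (limma adjusted p = 0.00016) in vehicle and -1.55 (limma adjusted p = 0.0057) in indomethacin. In each of these 36 h groups 1 array of 3 detected it, so both differences are against signals mostly at background. In static culture it was not detected on any array at either time. A second, dimmer Acod1 probe gave time differences of -1.40 in WSS vehicle and -0.74 in WSS indomethacin. Clec4d instead rose with time in static vehicle (1.32, at least 2.19-fold, limma adjusted p = 0.01), static indomethacin (1.24, at least 1.94-fold, limma adjusted p = 0.017) and WSS indomethacin (1.13, limma adjusted p = 0.04). Each of these calls was lost without some single array, static vehicle array 2 at 36 h in the first (adjusted p = 0.057), static indomethacin array 1 at 6 h or array 2 at 36 h in the second (up to 0.095), and any but WSS indomethacin array 1 at 36 h in the last (up to 0.15). Marco rose in WSS indomethacin (1.45, limma adjusted p = 0.0015) and had no call in the other conditions. The flow by time interaction in indomethacin and the flow by drug interaction did not pass for it, so that a difference between conditions was not shown.

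Cd14 rose with time in static vehicle, from 5.17, 4.66 and 4.97 to 5.64, 5.63 and 5.98, by 0.82 (limma adjusted p = 0.033). That call was lost on omission of array 2 or 3 at 6 h, or of array 1 or 3 at 36 h (adjusted p up to 0.12). It was also lost under 4 of the 7 other alternatives. Clec4n rose in WSS indomethacin, from 4.95, 4.91 and 4.94, none of them detected, by 0.73 or at least 1.53-fold (limma adjusted p = 0.016), and missed the threshold without array 3 at 36 h (adjusted p = 0.081). Saa3 did not pass in any of the 4 time comparisons.

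Markers of other cell types moved with time as well. In static vehicle all 6 mesenchyme markers tested rose and all 6 erythroid and all 3 epithelial markers tested fell between 6 h and 36 h. Of all genes, 26% were called higher and 25% lower there. The summed erythroid signal was 50000 to 104000 at 6 h, apart from the array at 7710, and 6020 to 34100 at 36 h. Summed mesenchyme signal was 2120 to 3350 at 6 h and 6240 to 8450 (static) or 3610 to 5230 (WSS) at 36 h. The summed identity signal had medians of 3140 at 6 h and 5100 at 36 h in static vehicle, and of 3400 and 5170 in WSS vehicle. The part of this change in cell makeup in the rise of the identity genes was not tested.

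**Figure D5:**
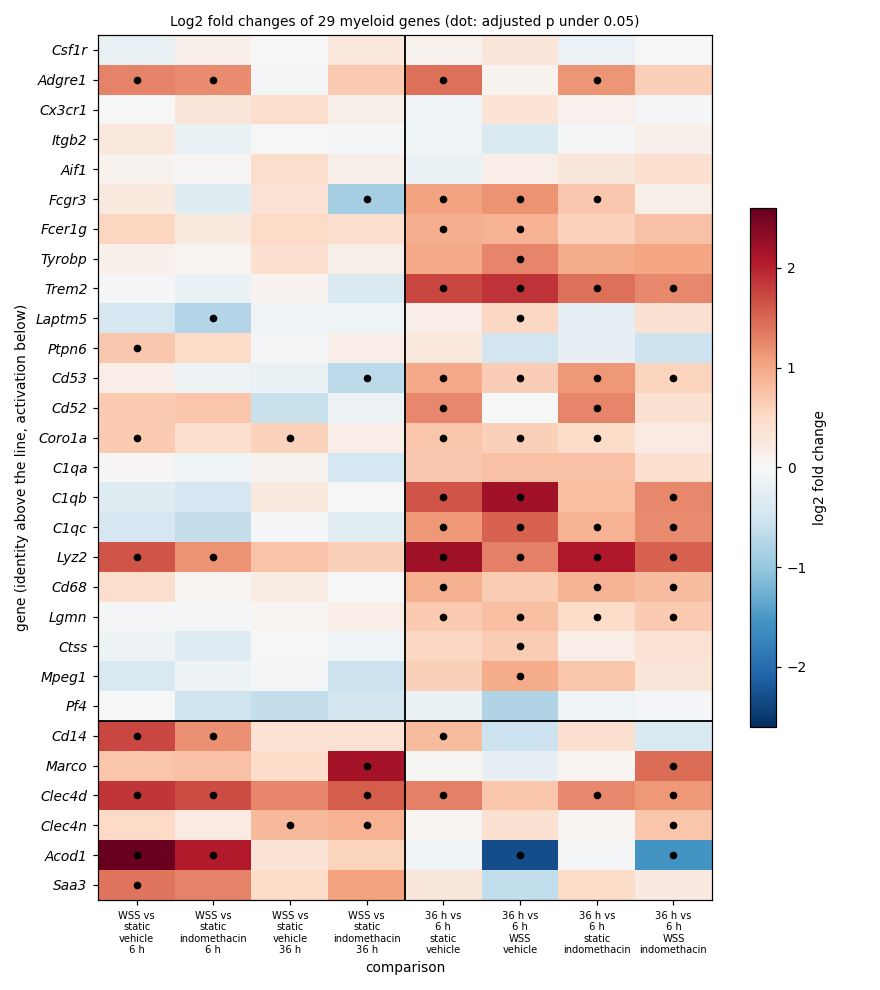
Log2 difference (colour) of the 29 tested members in 4 WSS against static and 4 time comparisons, with a dot where limma's adjusted p is under 0.05. Identity genes carry 12, 13, 10 and 7 dots in the time columns and at most 4 in a WSS column, and the only dotted decreases with time are the 2 of Acod1.

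Indomethacin gave few calls on these genes, which with 3 arrays per group does not show that effects were few. Against vehicle, none of the 29 passed in limma in static culture at 6 h, WSS at 6 h or static at 36 h, where 0%, 0% and 0.0491% of all genes were called. At an unadjusted p under 0.05 there were 1, 2 and 1 member genes and 798, 357 and 689 genes in all. In WSS culture at 36 h Fcgr3 passed, the only gene of all tested to do so (0.00818% of genes). It read 6.14, 6.03 and 5.97 with vehicle and 4.95, 4.59 and 5.08 with indomethacin, where no array detected it. It fell by 1.17 on the log2 scale (SE 0.18, limma adjusted p = 0.022), or at least 1.96-fold. The call was lost without any 1 of the 6 arrays other than WSS indomethacin array 3 (adjusted p up to 0.15), without background correction (0.13) and with only the 6 arrays in the fit (0.42).

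Marco moved the other way in the same cultures, from 5.24, 4.69 and 5.39 with vehicle to 6.40, 7.08 and 6.89 with indomethacin. The arrays did not overlap, and the difference of 1.68 ± 0.32 did not pass (limma adjusted p = 0.17). It passed with an offset of 50 (adjusted p = 0.026) and with median scaling (0.029). No member passed the flow by drug interaction at 6 h or at 36 h in limma, where 0% of all genes did, with 1 and 3 member genes under an unadjusted p of 0.05. The largest at 36 h were Marco (1.70 ± 0.45, limma adjusted p = 0.61) and Fcgr3 (-1.23 ± 0.26, limma adjusted p = 0.31). A difference in the flow response of these genes between vehicle and indomethacin was therefore not shown.

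Genes of the sensing pathway upstream of the activation genes were described from a separate list of the lipopolysaccharide receptor and Toll-like receptor route. Of 24 listed, 15 were tested, and under WSS at 6 h in vehicle 3 were higher and 4 lower, with a median of 0.14, where 15.1% of all genes were higher and 14.3% lower. Tlr2, a receptor of bacterial lipoproteins, rose by 0.89 ± 0.20 (limma adjusted p = 0.0021) and Myd88, the adaptor of most Toll-like receptors, by 0.65 ± 0.16 (limma adjusted p = 0.0039). Nfkbie, an inhibitor of NF-kappaB, rose by 1.12 ± 0.24 (limma adjusted p = 0.0018). The NF-kappaB feedback inhibitor Tnfaip3 and the nuclear NF-kappaB regulator Nfkbiz were lower (-1.27 ± 0.22, limma adjusted p = 0.00029, and -1.21 ± 0.27, limma adjusted p = 0.0024). The list thus moved both ways. Of the 4 called lower only Tnfaip3 and Nfkbiz are named here, and the Myd88 call was not rechecked under other settings. Tlr4, Lbp, Irak4, Ticam1, Tnf, Il6, Il1a, Il1rn and Nos2 were not detected in any group. At 36 h none was higher and 2 were lower (4.66% and 4.72% of all genes), Irak3 (-0.87, limma adjusted p = 0.015) and Tnfaip3 (-0.85, limma adjusted p = 0.02). Irak3 was lost without WSS array 3 (adjusted p = 0.062) and Tnfaip3 on omission of static 3, WSS 1 or WSS 3 (up to 0.097).

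Of 16 myeloid growth factors, receptors and transcription factors, 6 were tested, and at 6 h in vehicle 3 were higher under WSS and 1 lower, beside 15.1% and 14.3% of all genes. Csf1, the ligand of Csf1r, rose by 0.75 (limma adjusted p = 0.011), and without static array 2 its adjusted p was 0.077. Csf2ra, a subunit of the receptor for granulocyte-macrophage colony stimulating factor, rose by 0.81 (limma adjusted p = 0.0086), and without static array 3 its adjusted p was 0.072. Irf5, a transcription factor of inflammatory macrophages, rose by 0.97 ± 0.30 (limma adjusted p = 0.017) and was lost on omission of static 2, static 3 or WSS 2 (adjusted p up to 0.12). Cebpb, a C/EBP factor induced in stimulated macrophages, fell by 1.12 on the log2 scale (SE 0.22, limma adjusted p = 0.00073). Il34, Csf2, Csf2rb, Csf3r, Cebpa, Cebpe, Irf8, Tfec and Mitf were among those not detected in any group, and at 36 h no gene of this list passed in limma.

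Other blood cells could carry several of the member genes. Of 11 neutrophil markers only Prtn3 was tested, with S100a8, S100a9, Mpo and Elane among those not detected in any group, and its difference under WSS in vehicle was -0.22 at 6 h and -0.26 at 36 h (limma adjusted p = 0.44 and 0.48). Of 6 mast cell markers Hdc alone was tested (-0.08 and 0.17, neither passing), and of 7 lymphoid markers 2 were tested, with none passing in these comparisons. Of 8 dendritic cell and MHC class II genes 3 were tested, and H2-Aa, Cd74, Ciita, Flt3 and Itgax were not detected in any group. H2-Ab1, an MHC class II chain, was lower under WSS in vehicle at 6 h (-2.76 ± 0.28, limma adjusted p = 7.3e-07) and 36 h (-3.31 ± 0.28, limma adjusted p = 9.5e-08). H2-Eb1, another class II chain, was 0.19 at 6 h (limma adjusted p = 0.64) and higher at 36 h (0.88, limma adjusted p = 0.039), a call lost on omission of any 1 array other than WSS 2 (adjusted p up to 0.19). Zbtb46, a dendritic cell transcription factor, did not pass at either time, so the tested genes of this list went both ways. The summed signal of these 3 genes at 6 h in vehicle was 475 to 490 in static and 212 to 216 in WSS culture. Of the 3 only H2-Ab1 passed at 6 h, so the sum does not stand for dendritic cells. The summed activation signal was 156 to 168 and 336 to 895. The part of other blood cells in the differences of the member genes was not tested.

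Mesenchyme and neuron markers also moved with flow. In vehicle at 6 h the summed mesenchyme signal was 3180 to 3350 in static and 2470 to 2830 in WSS culture, and at 36 h 7820 to 8010 and 3610 to 5230. Of 6 mesenchyme genes 2 were lower at 6 h, where 14.3% of all genes were. They were the collagens Col1a2 (-0.56, limma adjusted p = 0.011) and Col3a1 (-0.68, limma adjusted p = 0.014), neither passing with median scaling (adjusted p = 0.3 and 0.31). At 36 h 4 of the 6 were lower, where 4.72% of all genes were lower and 4.66% higher. Among them were Col1a2 at -1.12 (limma adjusted p = 8.9e-05) and the matrix proteoglycan Dcn at -0.93 (limma adjusted p = 0.0058). Of the others, Col3a1 was lost on omission of static 1, static 3 or WSS 3 (adjusted p up to 0.063), and Pdgfra on omission of static 1, static 2, WSS 1 or WSS 3 (up to 0.15). The summed neuron signal in vehicle was 1810 to 2550 and 2370 to 3280 at 6 h, which overlapped, and 1230 to 2080 and 3290 to 4310 at 36 h. Of 4 neuron genes tested the largest difference at 6 h was in Stmn2 (0.58, limma adjusted p = 0.11), and at 36 h Stmn2 (1.19, limma adjusted p = 0.0072) and Nefm (1.13, limma adjusted p = 0.0056) were higher and Th lower. Stmn2 was lost without static array 3 (adjusted p = 0.056), and Th on omission of static 2, static 3, WSS 1 or WSS 3 (up to 0.19). Of 7 endothelial genes tested, Egfl7 was called lower under WSS in vehicle at 36 h. Its difference ran from -0.77 to -0.52 over omissions of 1 array. The call was lost without static 1, static 2, WSS 2 or WSS 3 (limma adjusted p up to 0.15). The summed endothelial signal at 36 h in vehicle was 1240 to 1800 in static and 933 to 1570 in WSS culture, which overlapped. In indomethacin it was 1360 to 1670 and 926 to 1130. The part of these shifts in the flow differences of the member genes was not tested.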

How the data were processed

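RNA of 24 samples was measured on Illumina bead arrays. The labels' protocols name an Ambion MessageAmp kit for the biotinylated cRNA, and the export software was not stated there. The deposited intensity table holds 1 linear signal per probe and array, without background subtraction, per the file headers and values. A detection p-value stands beside each signal as deposited, per the file headers. A deposited table of the authors' processed intensity values (array medians of 11.6 to 11.7, linear, background-subtracted and quantile normalized by comparison with the signals) served as an alternative, floored at 16. How its background was subtracted is unknown.

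Signals were processed in R 4.3.3 with limma 3.58.1 by neqc (normexp background from the detection p-values, offset 16, quantile normalization, log2). The offset makes differences of dim probes smaller than the true ones. Of 45281 probes 21251 were detected, and the platform table gives 1 symbol for 35784 and none for 9497. Symbols were updated by Entrez ID (28620 probes) or accession (2637) through a RefSeq table of GRCm38.p6 and otherwise kept (4527), which changed 941. The brightest detected probe stood for each of 12225 genes. Among the tested members 7 had other detected probes, 9 in all.

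Groups and replicate numbers came from the sample titles, and 0 pairs of arrays held identical values. Correlations were 0.98 to 0.993 within groups. A group-means model over the 24 arrays (lmFit, eBayes, 16 residual degrees of freedom, 21.4 after moderation) gave 16 comparisons with 2-sided tests, adjusted by Benjamini-Hochberg over all genes with a threshold of 0.05. An exact test of 3 arrays against 3 cannot go below p = 0.1, so none was used. Precision is limited by the number of arrays. The code was tested on simulated data. Replicate numbers recur across groups. Deviations of same-numbered arrays from their group means correlated at -0.23 to 0.36, with every pair above 0.1 in 3 of the 12 comparisons of 2 groups (WSS against static in indomethacin at 6 h and in both drug states at 36 h). The block was fitted over all 24 arrays and gave results for all 16 comparisons. Differently numbered arrays were not correlated, and the labels name no pairing. The block is therefore no more than an alternative setting in every comparison.

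Settings tried instead were median scaling, an offset of 50, no background correction, no filter on dim probes, the authors' processed values, the replicate block, a fit of only the arrays compared, and omission of each array. The member genes, other gene lists and alternatives were chosen with earlier results of these data known. Named were Spi1, Csf1r, Adgre1, Tyrobp, C1qb, Lyz2, Cd14, Il1b and Acod1, and passing members whose arrays did not overlap between groups, up to 8 by size in a flow comparison, 6 in a drug or time comparison and 5 in an interaction. From each other list up to 4 passing genes of the vehicle flow comparisons were named. Others were chosen after their values were seen. No slide or scan batch is recorded in the files.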

Additional observations from a re-analysis of the deposited data

Results flagged for a closer look

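The effect of WSS on 3 member genes differed between 6 h and 36 h in vehicle by the test of the interaction (36 h effect minus 6 h effect, limma over all genes tested). Acod1 gave -2.22 (adjusted p = 0.017), Cd14 -1.36 (adjusted p = 0.048) and Cd52 -1.25 (adjusted p = 0.034). Under the 7 alternatives other than leaving out an array, the call of Acod1 was never lost. That of Cd14 was lost in 5 of them and that of Cd52 in 3. Acod1 was detected on every WSS vehicle array at 6 h and on 1 at 36 h, and on no static array at either time. Each of the 3 calls was lost on omission of WSS vehicle array 1 at 6 h, which had the highest summed activation signal of all arrays, 895 beside 439 and 336 in its group. Its part in the differences between times was not tested further. Single outlying arrays within a group of 3 were not tested.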

How the results depend on the processing

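Of 75 calls on member genes, none turned in direction under any setting, 34 were lost without at least 1 single array and 22 under at least 1 of the 7 other alternatives. With the replicate block no call was lost, and the flow comparison in vehicle had 9 member genes at 6 h (8 without it, with Laptm5 added at -0.44) and 3 at 36 h, with 15 for time in WSS vehicle, 13 for time in static indomethacin and 4 for the flow by time interaction in vehicle (Adgre1 added at -1.33, adjusted p = 0.046). Counts of member genes moved by more than 1.5 times as follows. For the flow comparison in vehicle at 36 h (2) the authors' processed values and no filter on dim probes each gave 1, and a fit of only the arrays compared gave 0. For indomethacin against vehicle in WSS at 36 h (1) median scaling and the offset of 50 each gave 2, with Marco added, while no background correction and only the arrays compared gave 0. The flow by time interaction in vehicle (3) went to 1 with median scaling, no filter and only the arrays compared. The authors' processed values called 1 gene, Fcgr3, in the flow by time interaction in indomethacin and in the flow by drug interaction at 36 h, against 0. Time in WSS vehicle (14) gave 9 with only the arrays compared. Causes of these shifts were not tested. Without 1 array the counts ran from 6 to 11 (vehicle, 6 h), 3 to 7 (indomethacin, 6 h), 0 to 3 (vehicle, 36 h) and 3 to 5 (indomethacin, 36 h) for WSS against static. For time they ran from 13 to 16 (static vehicle), 7 to 18 (WSS vehicle), 7 to 12 (static indomethacin) and 6 to 11 (WSS indomethacin), for the flow by time interaction from 0 to 3 (vehicle) and 0 to 1 (indomethacin), and for the drug in WSS at 36 h from 0 to 1. Uncalled differences changed sign. Under WSS in vehicle at 36 h Adgre1 was 0.20 with median scaling and -0.36 to 0.29 without 1 array, and Csf1r -0.13 to 0.18. At 6 h in vehicle C1qb was -0.70 to 0.10, Csf1r -0.41 to 0.00 and Tyrobp -0.42 to 0.54. In indomethacin Tyrobp was -0.18 to 0.36 at 6 h and -0.08 to 0.49 at 36 h, and C1qb -0.12 to 0.19 at 36 h. Over all genes, median scaling called 4574 for 2175 (WSS, indomethacin, 6 h), 2065 for 1147 (WSS, vehicle, 36 h) and 680 for 1437 (flow by time, vehicle). Only the arrays compared gave 123 for 1147 (WSS, vehicle, 36 h), 710 for 1325 (WSS, indomethacin, 36 h) and 948 for 1437. For the drug in static culture at 36 h 6 genes became 0 with the offset of 50, median scaling, no background correction and only the arrays compared. With median scaling the share of calls that were higher went from 52.4% to 66.1% for time in static indomethacin and from 48.3% to 15.8% for flow by time in indomethacin. Signals near background limit what the 12 undetected genes and most activation genes can show in static culture.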
